A study of Mus musculus with 12 samples.

Results

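The 10 genes described here encode the Shank, Homer and Dlgap families of postsynaptic scaffold proteins, namely Shank1, Shank2, Shank3, Homer1, Homer2, Homer3, Dlgap1, Dlgap2, Dlgap3 and Dlgap4. They were chosen by gene symbol and are 10 of the 55573 genes in the count table. Each of them was detected in every library and passed the filter on low counts, which left 17126 genes for testing. Their RNA was measured by RIP-seq, in which an antibody pulls an RNA-binding protein from cell lysate and the RNA that comes with it is sequenced. The 12 libraries made up 4 groups of 3 replicates: Input, which is total RNA from the lysate with no antibody, and the YTHDF1 RIP, YTHDF2 RIP and YTHDF3 RIP, each made with an antibody against the endogenous protein. All groups came from untreated primary hippocampal neurons of the C57BL/6 strain, taken from newborn mice and cultured for 14 days. The pups of a litter were pooled over both sexes, and an inhibitor of cell division was added to hold back glial cells. For every replicate, 1 pooled lysate was divided over the 3 RIPs with 1 shared Input. Enrichment is relative to Input, since no pulldown with a control antibody was analysed here.

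Shank, Homer and Dlgap proteins form the deep layer of the postsynaptic density, the protein mesh under the receptors of excitatory synapses. Dlgap proteins, also called SAPAP or GKAP, bind the membrane-near scaffold PSD-95 with one end and Shank with the other. Shank proteins bind Dlgap through a PDZ domain and carry a proline-rich stretch that Homer recognises, and Homer in turn binds group I metabotropic glutamate receptors and the inositol trisphosphate receptor. YTHDF1, YTHDF2 and YTHDF3 are cytoplasmic reader proteins that recognise N6-methyladenosine (m6A) in RNA, and the comparisons below ask how much of each scaffold mRNA came down with each reader.

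The study designed oligonucleotides that change single m6A sites in the 3′UTRs of the Shank1 and Homer1 mRNAs, and the unmutated sites are printed here because they are the m6A sites that the study chose to alter in members of these families. The 4 sites whose oligonucleotides were no longer than 30 bases are given 5′ to 3′ on the transcript strand, as they stand in the annotated GRCm38 transcripts, with the adenosine that the oligonucleotide replaces in capitals.
Shank1 site 3: gctgacacaagActgcaagtggag
Homer1 site 1: gtcttcctaggActgtttgggc
Homer1 site 3: ctaaattgtgActgtggcagatgg
Homer1 site 4: gaacatgtggActtgcagtgacc
The Shank1 site lies at chr7:44357551-44357574 and the Homer1 sites at chr13:93402273-93402294, chr13:93403261-93403284 and chr13:93404826-93404848, all on the plus strand and in the 3′UTR. Counted from 1 at the 5′ end of each oligonucleotide, the changes are A12T in Shank1 site 3 and A12G, A11G and A11G in Homer1 sites 1, 3 and 4. Homer1 sites 1 and 4 hold the letters GGACT around the adenosine, and the other 2 do not. The RIP-seq counts below are sums over the whole gene and do not resolve these sites.

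The scaffold genes were among the better expressed genes of these cultures. Their counts together were 12067 to 25304 in the Input libraries, or 0.133% to 0.190% of all counts, and 14682 to 125847 in the RIP libraries. The total count per library ran from 6020072 to 38909592. On a per-length scale, counts per 1000000 of the TMM-scaled library (normalized CPM) per kb of exon, Shank1 was highest in Input at 45.6 ± 8.93 (mean ± SD, n = 3, as for all such values) and Homer2 lowest at 5.63 ± 1.06. Between them came Dlgap3 at 31.6 ± 8.61, Dlgap4 at 22.02 ± 1.61, Shank3 at 16.7 ± 4.09, Shank2 at 15.4 ± 3.96, Dlgap1 at 13.5 ± 3.65, Dlgap2 at 10.2 ± 3.20, Homer3 at 6.27 ± 0.451 and Homer1 at 5.80 ± 1.16. Every neighbouring pair in this order overlapped in its range over the Input libraries. On this scale all 3 Homer genes lay below all 4 Dlgap and all 3 Shank genes with the exception of the lowest Dlgap2 library, at 6.65. The length is the sum of all annotated exons, 11976 bases in Homer1 and 17890 in Dlgap1 but 4521 in Dlgap3. The longest coding transcripts of these genes hold 5713, 7173 and 4207 bases, and the order per transcript length was not tested. The median of the protein-coding genes tested was 3.996 CPM per kb, and Shank1 stood at the 96.2nd percentile of these genes and Homer2 at the 60.0th.

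The libraries of a group did not share a common level of these mRNAs. In Input, replicate 3 was the lowest library for 8 of the 10 genes, and in the YTHDF3 RIP replicate 3 was the lowest for 9. In the YTHDF1 RIP replicate 2 was the lowest for 7 and replicate 3 the highest for 8, and in the YTHDF2 RIP replicate 2 was the lowest for 8 and replicate 3 the highest for 8. Astrocyte markers moved with this. The summed CPM (here of all counts, without TMM scaling) of 5 astrocyte genes was highest in the same libraries, at 2585 in Input replicate 3, 2108 in YTHDF3 replicate 3, 834 in YTHDF1 replicate 2 and 1453 in YTHDF2 replicate 2, against lowest values of 252, 222, 285 and 697 in the same order of groups. The 8 neuronal markers summed to between 2058 and 6195 CPM over all libraries, 4 genes of the oligodendrocyte lineage to between 15.5 and 300.3 and 4 microglial genes to between 0.720 and 6.16, with none of the 21 markers at 0 in any group. Fewer cells of a type and less RNA per cell cannot be told apart in bulk samples, and the part of other cell types in the results was not tested. Of the libraries, YTHDF1 replicate 1 and YTHDF2 replicate 3 detected more genes than the rest, at 35147 and 31334 against 24871 to 28828. Without both of them, Shank3 in YTHDF1 lost its call against Input (0.70, edgeR adjusted p 0.163) and Homer2 in YTHDF1 gained one (0.997, 0.0122).

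**Figure D1:**
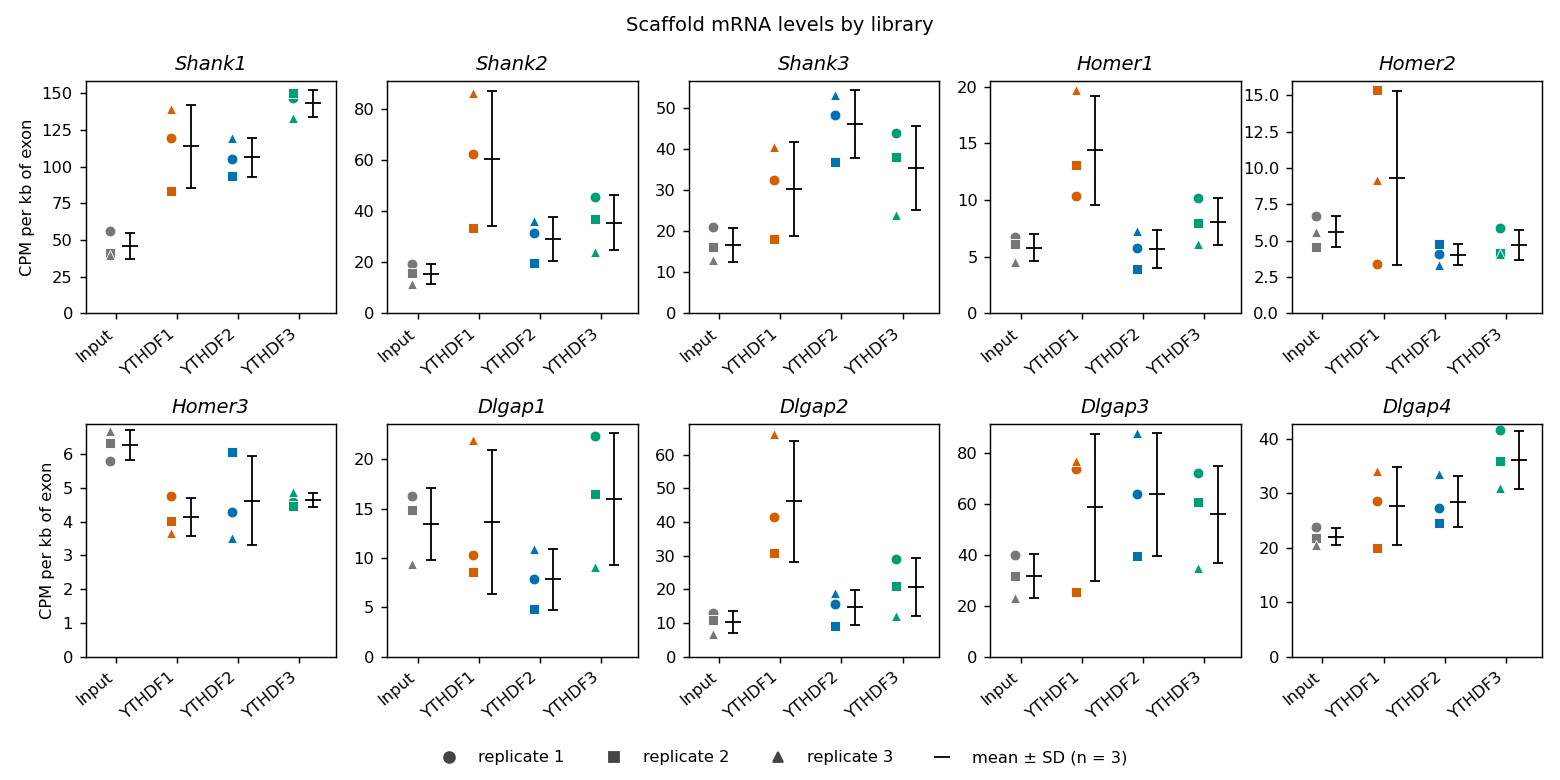
Level of each scaffold mRNA in every library, as normalized CPM per kb of exon on linear axes that start at 0, with replicates 1 to 3 as circles, squares and triangles and the mean ± SD of the 3 libraries beside them. All 9 RIP libraries of Shank1 lie above its 3 Input libraries, Dlgap2 is highest in the YTHDF1 RIP, and Homer3 is lower in the YTHDF1 and YTHDF3 RIPs than in Input.

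Against Input, 11 of the 30 tests (10 genes in 3 RIPs) were called enriched and 1 depleted, at a log2 fold change beyond 0.32 in either direction and an adjusted p of at most 0.05 from edgeR's quasi-likelihood F test. The YTHDF1 RIP enriched 5 of the 10 genes, where 27.2% of all genes tested were enriched, and depleted 1, where 25.8% of all genes were depleted. The YTHDF2 RIP enriched 2, against 15.7% of all genes. It depleted 0, also by DESeq2 and at an unadjusted p under 0.05, against 19.0% of all genes. The YTHDF3 RIP enriched 4, against 16.4% of all genes, and depleted 0, likewise with DESeq2 and at an unadjusted p under 0.05, against 23.0% of all genes. The median log2 fold change of the 10 genes for YTHDF1, YTHDF2 and YTHDF3 was 0.88, 0.44 and 0.77, beside 0.02, 0.02 and 0.05 over all genes. Once the relation of enrichment to exonic length, described further on, was removed, these medians were 0.17, 0.14 and 0.44, beside -0.06, 0.01 and 0.09 over all genes. All 3 comparisons share the Input libraries.

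The ranges of the libraries gave the following. In YTHDF1, 4 of the 10 genes had all 3 RIP libraries above all 3 Input libraries (Shank1, Shank2, Homer1 and Dlgap2), as did 27.9% of all genes, and 1 had them all below (Homer3), as did 28.0%. In YTHDF2, 4 genes lay above (Shank1, Shank2, Shank3 and Dlgap4), where 25.3% of all genes did, and 0 below, where 27.5% did. In YTHDF3, 4 genes lay above (the same 4 as in YTHDF2), where 26.6% of all genes did, and 1 below (Homer3), where 29.1% did.

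By family, 8 of the 9 Shank tests were called enriched, against 1 of 9 Homer tests and 2 of 12 Dlgap tests, where 27.2%, 15.7% and 16.4% of all genes were enriched in YTHDF1, YTHDF2 and YTHDF3. All 3 Shank genes were among the 20% of genes with the most exonic bases, and 4 of their 8 calls were kept with the length trend removed. The Shank log2 fold changes ran from 0.86 to 1.97, those of Homer from -0.60 to 1.31 and those of Dlgap from -0.78 to 2.18.

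**Figure D2:**
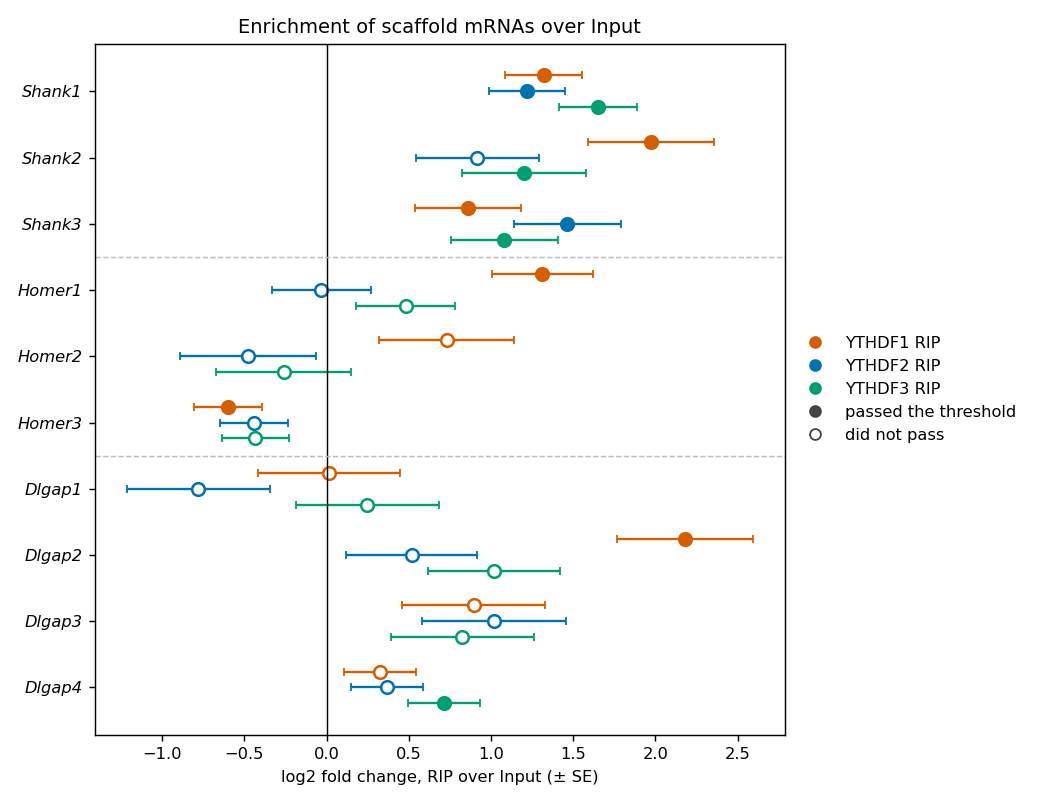
Log2 fold change of each scaffold mRNA in the YTHDF1 (orange), YTHDF2 (blue) and YTHDF3 (green) RIPs over Input, with bars of 1 SE from the edgeR fit of all 12 libraries; filled points passed the threshold and open points did not. All 9 Shank values lie between 0.86 and 1.97, and all 3 Homer3 values lie below 0.

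Shank1 (ENSMUSG00000038738; GRCm38 chromosome 7, 44310253-44360572) encodes the Shank protein best known for its dendritic mRNA. The Input libraries (replicates 1 to 3) held 588, 431 and 420 normalized CPM. The YTHDF1 libraries held 1254, 875 and 1461, those of YTHDF2 1104, 987 and 1259 and those of YTHDF3 1541, 1581 and 1396. Each RIP library lay above each Input library. The enrichment was 2.50-fold in YTHDF1, 2.33-fold in YTHDF2 and 3.14-fold in YTHDF3 (log2 1.32 ± 0.23, 1.22 ± 0.23 and 1.65 ± 0.24, SE), and edgeR called all 3. None of the 12 fits that left out 1 library ended any of these calls.

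Shank2 (ENSMUSG00000037541; chromosome 7, 144001928-144424494), a scaffold first known as ProSAP1, had Input values of 206, 170 and 121 CPM and YTHDF1 values of 668, 357 and 927. YTHDF2 gave 339, 210 and 390 CPM, and YTHDF3 gave 488, 397 and 258. All RIP libraries again exceeded all Input libraries, but YTHDF2 replicate 2 did so by little. The log2 fold change was 1.97 ± 0.38 in YTHDF1 (edgeR adjusted p 0.00124), which is a 3.93-fold enrichment, and 1.20 ± 0.37 in YTHDF3 (adjusted p 0.0244). In YTHDF2 it was 0.92 ± 0.37 and missed the threshold (adjusted p 0.0773).

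Shank3 (ENSMUSG00000022623; chromosome 15, 89499623-89560261), whose human counterpart is mutated in Phelan-McDermid syndrome, had Input values of 194, 149 and 119 CPM. The YTHDF2 RIP gave 446, 340 and 490 CPM and the YTHDF3 RIP 406, 350 and 221, all above the Input range. In the YTHDF1 RIP the values were 299, 166 and 374 CPM, and replicate 2 fell inside the Input range. Shank3 was the Shank mRNA with the highest log2 fold change in YTHDF2, at 1.46 ± 0.33 (edgeR adjusted p 0.00552), with 1.08 ± 0.32 in YTHDF3 (0.0203) and 0.86 ± 0.32 in YTHDF1 (0.0420). The YTHDF1 call was lost in 7 of the 12 fits that left out 1 library, namely without Input replicate 2 or 3, YTHDF1 replicate 1 or 3, YTHDF2 replicate 1 or 3 or YTHDF3 replicate 2, with the lowest value, 0.59, without YTHDF1 replicate 3. It was also lost with library size in place of TMM scaling (0.47) and with TMM over protein-coding genes (0.60).

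Homer1 (ENSMUSG00000007617; chromosome 13, 93299635-93405129) encodes long forms that crosslink Shank and metabotropic glutamate receptors, and the short, activity-induced form Homer1a that uncouples them. Counts per gene add up both. Input libraries held 80.8, 73.6 and 53.9 CPM, the YTHDF1 RIP 124, 157 and 236, the YTHDF2 RIP 69.4, 46.9 and 87.5 and the YTHDF3 RIP 122, 95.9 and 72.8. Only the YTHDF1 libraries lay clear of Input. There Homer1 was enriched 2.48-fold (log2 1.31 ± 0.31, edgeR adjusted p 0.00384). In YTHDF3 the log2 fold change was 0.48 ± 0.30 (adjusted p 0.232), with each library above the Input of its number, and in YTHDF2 it was -0.03 ± 0.30 (0.948), a sign that turned with library size as the scaling (0.03).

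Homer2 (ENSMUSG00000025813; chromosome 7, 81600481-81707527), a paralog with the same receptor-binding domain, passed in no RIP. Input held 84.7, 57.9 and 70.5 CPM, the YTHDF2 RIP 51.2, 60.2 and 41.8 and the YTHDF3 RIP 74.1, 52.2 and 51.5. The YTHDF1 libraries disagreed widely, at 43.0, 194 and 116 CPM, the first below and the others above every Input library. The log2 fold changes were 0.73 ± 0.41, -0.48 ± 0.41 and -0.26 ± 0.41 in YTHDF1, YTHDF2 and YTHDF3 (edgeR adjusted p 0.155, 0.394 and 0.644), and the last of them turned to 0.05 under library size alone. Without YTHDF1 replicate 1 the YTHDF1 value was 1.13 and passed (adjusted p 0.00643).

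Homer3 (ENSMUSG00000003573; chromosome 8, 70282827-70294361), a paralog known mainly from cerebellar Purkinje cells, was the only member called depleted. Input held 19.9, 21.7 and 23.0 CPM, the YTHDF1 RIP 16.4, 13.8 and 12.6, the YTHDF2 RIP 14.8, 20.9 and 12.1 and the YTHDF3 RIP 15.7, 15.4 and 16.8. The YTHDF1 and YTHDF3 libraries lay below all Input libraries, and 1 YTHDF2 library lay within them. Its log2 fold change was -0.60 ± 0.20 in YTHDF1 (edgeR adjusted p 0.0275), a level 1.52-fold lower than in Input, and -0.44 ± 0.21 and -0.43 ± 0.20 in YTHDF2 and YTHDF3 (0.117 and 0.113). The YTHDF1 call was lost without Input replicate 2 (-0.59) or YTHDF1 replicate 3 (-0.52). Homer3 had the lowest counts of the 10 genes, 108 to 508 per library, and 25.4% of its exonic bases overlap Ddx49 on the opposite strand, which the stranded counting kept apart.

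Dlgap1 (ENSMUSG00000003279; chromosome 17, 69969073-70821413), the founding member of its family, passed in no RIP. Input held 291, 265 and 167 CPM, YTHDF1 183, 153 and 393, YTHDF2 140, 85.6 and 196 and YTHDF3 401, 295 and 163. Each RIP group overlapped Input, with YTHDF1 replicate 3 far above its 2 companions. The log2 fold changes of 0.01 ± 0.43, -0.78 ± 0.44 and 0.25 ± 0.43 were within the spread of the replicates (edgeR adjusted p 0.984, 0.188 and 0.682). The first was below 0 in all 11 alternatives that keep all libraries, library size alone (-0.40) among them.

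Dlgap2 (ENSMUSG00000047495; chromosome 8, 14095865-14847680), linked in human genetics to autism, showed the highest enrichment of any member. Its Input libraries held 79.3, 67.6 and 40.9 CPM and its YTHDF1 libraries 255, 190 and 406, a 4.53-fold enrichment (log2 2.18 ± 0.42, edgeR adjusted p 0.00110). The YTHDF2 RIP, at 96.5, 55.5 and 117 CPM, and the YTHDF3 RIP, at 179, 129 and 73.4, overlapped Input. The log2 fold change there was 0.52 ± 0.40 in YTHDF2 (adjusted p 0.341) and 1.02 ± 0.40 in YTHDF3 (0.0636). DESeq2 called the YTHDF3 value (1.05, adjusted p 0.0293), as did edgeR with library size alone (1.32) and without the filter (1.13). Every alternative setting kept the YTHDF1 call.

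Dlgap3 (ENSMUSG00000042388; chromosome 4, 127169204-127237022), whose loss in mice is known for compulsive grooming, had log2 fold changes of 0.89 ± 0.44, 1.02 ± 0.44 and 0.83 ± 0.44 in YTHDF1, YTHDF2 and YTHDF3. None passed the threshold (edgeR adjusted p 0.106, 0.0921 and 0.156). Input values were 181, 144 and 104 CPM, and the YTHDF1 RIP gave 334, 115 and 348, the YTHDF2 RIP 289, 180 and 399 and the YTHDF3 RIP 328, 274 and 158. In each RIP, 1 library reached down into the Input range. Without the low YTHDF1 replicate 2, the YTHDF1 value was 1.18 and passed (0.0176).

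Dlgap4 (ENSMUSG00000061689; chromosome 2, 156613705-156764363), the most widely expressed Dlgap gene, passed only in YTHDF3. Input libraries were close together at 201, 184 and 174 CPM, and the YTHDF3 libraries at 351, 303 and 261 all lay above them, with a log2 fold change of 0.71 ± 0.22 (edgeR adjusted p 0.0224). The YTHDF1 RIP, at 242, 169 and 289 CPM, and the YTHDF2 RIP, at 230, 207 and 284, gave 0.33 ± 0.22 and 0.37 ± 0.22 (0.231 and 0.214). The first of these 2 values was -0.07 under library size alone.

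The YTHDF3 calls of Shank2, Shank3 and Dlgap4 were lost in 4, 4 and 3 of the 12 fits that left out 1 library. The YTHDF3 RIP enriched 1 of the 10 genes without Input replicate 2, without Input replicate 3 or without YTHDF3 replicate 1. It enriched 2 without YTHDF3 replicate 2. Of the 17126 genes tested, 1970, 2383, 2314 and 2170 were enriched in these fits, against 2817 with all libraries. Over the fits that left out 1 library, the log2 fold change of Shank2 ran from 0.98 to 1.42, that of Shank3 from 0.89 to 1.302 and that of Dlgap4 from 0.60 to 0.82. With pairing, the number of YTHDF3 calls moved in the other direction, and the cause was not tested. Over all genes, the YTHDF3 libraries followed the Input of their number, with deviations from the group means correlated at 0.829, 0.528 and 0.804. Among the 10 genes, the order of the replicates differed between Input and YTHDF3 in Shank1, Homer2 and Homer3. With YTHDF3 and Input fitted by themselves and the replicate number as a block, 7 genes were enriched and 1 depleted, where 36.3% of all genes were enriched and 32.2% depleted. The additional enriched genes were Homer1 at 0.53 ± 0.09 (edgeR adjusted p 1.90e-05), Dlgap2 at 1.04 ± 0.09 (7.17e-10) and Dlgap3 at 0.86 ± 0.10 (3.69e-08), and Homer3 was depleted at -0.37 ± 0.11 (0.00333). Dlgap1 passed the adjusted p at 0.25 ± 0.10 (0.0221) but not the fold threshold. The YTHDF1 libraries did not follow the Input of their number, and the same paired fit for YTHDF1 enriched only Shank2 (1.79 ± 0.48, 0.0317) and Dlgap2 (2.04 ± 0.46, 0.0196), with Shank1 and Homer1 at adjusted p 0.0667 and 0.0587, where 14.0% of all genes were enriched. It depleted 0 of the 10, where 17.7% of all genes were depleted, and DESeq2 was not run in that pairing. Homer3 was the 1 gene below Input there at an unadjusted p under 0.05 (-0.71 ± 0.29, adjusted p 0.105). With the block in the fit of all 12 libraries, 5 genes were enriched and 1 depleted for YTHDF1, 2 enriched for YTHDF2 and 4 for YTHDF3, as without it.

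Differences between the readers were then tested directly. Homer1 and Dlgap2 differed among the 3 RIPs in 1 joint test per gene with no fold threshold (edgeR adjusted p 0.0142 and 0.0173), where 32.3% of all genes did. For pairs of RIPs a fold of at least 2 was asked as well. Between YTHDF1 and YTHDF2 these 2 genes were again the ones called, where 17.5% of all genes differed. Homer1 was 2.54-fold higher in the YTHDF1 RIP (log2 1.34 ± 0.31, adjusted p 0.00724) and Dlgap2 3.17-fold higher (1.66 ± 0.41, 0.0107). In both genes all 3 YTHDF1 libraries lay above all 3 YTHDF2 libraries. The share of all genes that separated in this way was not counted, and both genes had already been called from these same libraries. The Homer1 call was lost with the length trend removed (0.72, adjusted p 0.0590, and 0.74, 0.0716, with the replicate block) and, with library size alone, fell short of the fold (0.86). Homer2, at 1.21 ± 0.42 (0.0508), and Shank2, at 1.06 ± 0.37 (0.0565), missed the threshold by little, and DESeq2 called both (log2 1.16 and 1.04). For the other 6 genes the log2 difference lay between -0.61 and 0.79 (adjusted p 0.198 to 0.913).

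Between YTHDF1 and YTHDF3 edgeR called 0 of the 10 genes, with 3 at an unadjusted p under 0.05, where 14.5% of all genes differed, and DESeq2 called 1, Dlgap2. The 3 were Dlgap2 at 1.16 ± 0.40 (adjusted p 0.0602), Homer1 at 0.83 ± 0.30 (0.0714) and Homer2 at 0.99 ± 0.41 (0.109), each higher in YTHDF1. Shank2 was at 0.77 ± 0.37 (0.163), and the other 6 genes were between -0.39 and 0.07. YTHDF2 and YTHDF3 also gave 0 calls with edgeR and with DESeq2, where 5.10% of all genes differed, and 1 gene at an unadjusted p under 0.05, Dlgap1 at -1.03 ± 0.44 (0.171), lower in YTHDF2. The joint test of Homer1 and Dlgap2 lost both genes without YTHDF1 replicate 3 (adjusted p 0.0556 and 0.0760), the library with the highest value of each. Without both libraries that detected the most genes, the joint test called Homer1 (0.0159) and Homer2 (0.00999), and Dlgap2 no longer passed (0.0543). Homer2 was then also higher in YTHDF1 than in YTHDF2 (1.37, 0.0104) and in YTHDF3 (1.21, 0.0120).

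The composition of each family was then compared as the share of a member in its family's reads per kb of exon. A share does not depend on the scaling between libraries, but its level depends on the exonic length used. Of the 30 shares (10 genes in 3 RIPs), 14 lay outside the range of the Input libraries, 7 in YTHDF1, 4 in YTHDF2 and 3 in YTHDF3. The shares of a family add up to the whole in each library. A rise of any member therefore lowers the others, and the 30 are not separate results. How often such shares separate in other gene families was not counted. With 3 libraries against 3, an exact permutation test cannot give a p below 0.1, and all 14 had this p (adjusted p 0.214 over 30 tests, two-sided). No share therefore passed a test, and the values are given as a description.

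Within the Shank family, Shank1 took the largest share in every library, 58.9 ± 3.11% in Input and 67.5 ± 5.70% in the YTHDF3 RIP. Shank2 and Shank3 moved apart between the YTHDF1 and YTHDF2 RIPs. Shank2 held 28.7 ± 3.88% in YTHDF1 and 15.8 ± 2.43% in YTHDF2, on either side of its 19.7 ± 2.02% in Input. Shank3 did the reverse, with 14.6 ± 1.04% in YTHDF1 and 25.3 ± 0.818% in YTHDF2 around 21.4 ± 1.12% in Input. In YTHDF3 the Shank3 share was also below the Input range, at 16.3 ± 2.75%. Among the Homer genes the 3 members had close to equal shares in Input, with 32.6 ± 5.06% for Homer1, 31.7 ± 4.21% for Homer2 and 35.7 ± 5.04% for Homer3. Homer1 reached 52.2 ± 10.6% in YTHDF1 and 46.01 ± 4.88% in YTHDF3, and Homer3 was at 16.4 ± 8.03% in YTHDF1. In the Dlgap family Dlgap2 rose out of the Input range only in YTHDF1, at 32.2 ± 4.88% against 12.97 ± 1.54%. Dlgap3 did so only in YTHDF2, at 54.97 ± 3.66% against 40.6 ± 2.34%. Dlgap1 was below its Input share of 17.3 ± 1.49% in all 3 RIPs, at 9.26 ± 2.31%, 6.71 ± 0.547% and 12.1 ± 1.55%. In each of these 3 groups every Dlgap1 share was lower than every Input share. A lower share is not a lower level, since the log2 fold change of Dlgap1 over Input in YTHDF3 was 0.25 ± 0.43.

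**Figure D3:**
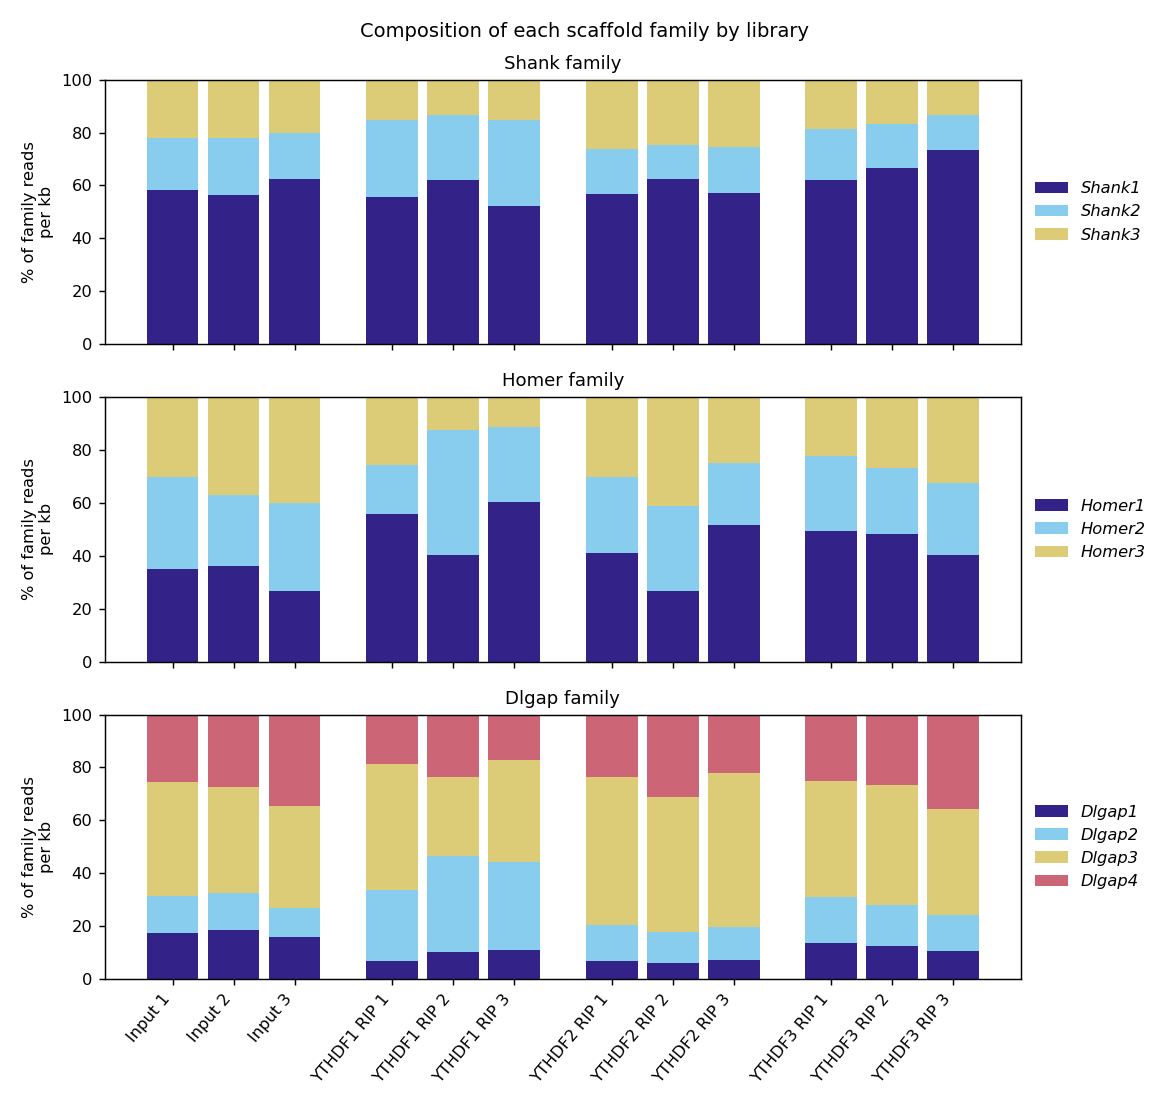
Share of each member in the reads per kb of its family (percent, stacked to 100 in each bar) for the 12 libraries, with the Shank, Homer and Dlgap families in separate panels. Dlgap2 takes 26.9% to 36.5% of its family in the YTHDF1 libraries against 11.2% to 13.9% in Input, and Dlgap1 is smaller in every RIP library than in Input.

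Exonic length moved with enrichment over all genes. In the quintile of genes with the shortest summed exonic length (up to 1610 bases) the median log2 fold change was -1.06, -0.86 and -1.31 in YTHDF1, YTHDF2 and YTHDF3. In the quintile with the longest (7132 bases or more) it was 0.87, 0.42 and 0.61. Of the 10 scaffold genes, 7 were in the longest quintile, with Dlgap1 the longest at 17890 bases of exon. The longest coding transcript of Dlgap1 holds 7173 bases. Dlgap2 (6149 bases) was in the quintile below, whose medians were 0.34, 0.24 and 0.31, and Dlgap3 (4521 bases) and Homer3 (3440 bases) were in the middle one, with medians of -0.04, 0.06 and 0.04. The values of Shank3 in YTHDF1, 0.86, and of Dlgap4 in YTHDF3, 0.71, were thus close to the medians of their quintile.

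Once each library was corrected for its length trend, 5 of the 11 enriched calls were kept, where 22.2%, 12.96% and 15.2% of all genes were enriched in YTHDF1, YTHDF2 and YTHDF3. These were Shank1 in YTHDF2 (0.82 ± 0.22, edgeR adjusted p 0.0156) and YTHDF3 (1.11 ± 0.22, 0.00289), Shank2 in YTHDF1 (1.04 ± 0.35, 0.0277), Shank3 in YTHDF2 (1.097 ± 0.31, 0.0213) and Dlgap2 in YTHDF1 (1.75 ± 0.41, 0.00440). Shank1 in YTHDF1 was then at 0.42 ± 0.22, Homer1 in YTHDF1 at 0.26 ± 0.25 and Shank3 in YTHDF1 at 0.08 ± 0.31, and none passed. Between readers, Shank3 was then lower in YTHDF1 than in YTHDF2 by a log2 difference of -1.01 ± 0.31 (0.0331). Dlgap1 became depleted in YTHDF1 (-1.45 ± 0.37, 0.00667) and in YTHDF2 (-1.31 ± 0.36, 0.0189). Homer3 in YTHDF1 moved to -0.51 ± 0.20 and no longer passed (0.0601). The correction used the summed exonic length, 17890 bases in Dlgap1 and 11976 in Homer1. Their longest coding transcripts hold 7173 and 5713 bases, and a correction by transcript length was not run. How much of the length relation belongs to the readers was not tested.

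**Figure D4:**
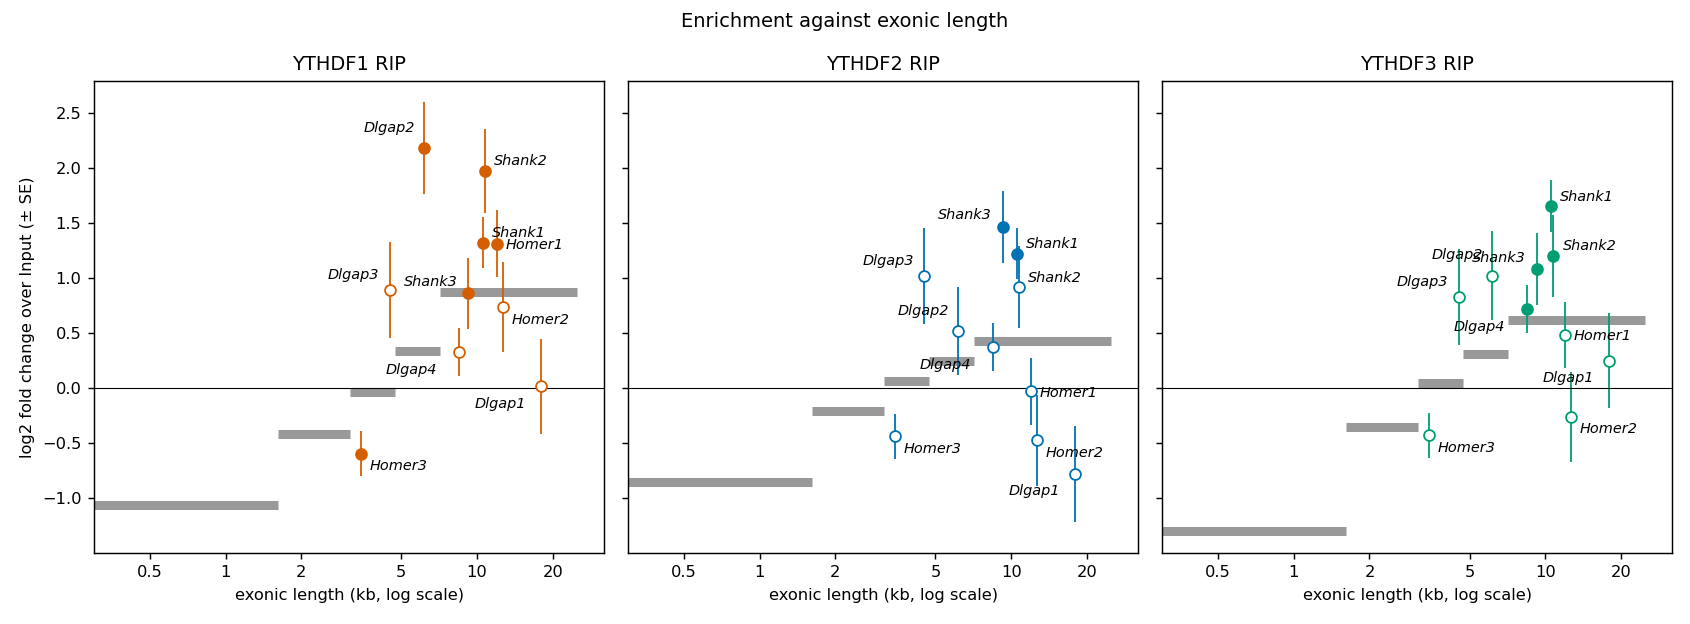
Log2 fold change over Input against exonic length (log scale, kb) in the 3 RIPs; coloured points are the 10 scaffold genes with bars of 1 SE, filled where the threshold was passed, and grey bars are the medians of all genes tested in 5 quintiles of length, drawn from 0.3 to 25 kb. Dlgap2 in YTHDF1, at 2.18, lies above its quintile's median of 0.34, and Dlgap1 lies below its quintile's median in each RIP.

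The mRNAs also differed in features that the selection did not use. For the longest annotated coding transcript of each gene (GRCm38), the length ran from 2608 bases in Homer3 to 10982 in Homer2, against a median of 3302 over 13416 transcripts. The 3′UTR was longest in Homer2 at 9772 bases, longer than in 99.6% of transcripts, and was 972 bases in Dlgap2 and 654 in Dlgap3, against a median of 1203. GGACT, a common form of the m6A consensus, was searched for on the transcript strand. It was present in each of the 10 transcripts and in 92.6% of all transcripts. Shank1 held 13 copies, 9 of them in the coding sequence and 3 in the 3′UTR, Homer2 held 10 and Dlgap1 held 10, while Dlgap2 and Dlgap4 held 2 each. Per kb, the density ran from 0.412 in Dlgap4 to 1.39 in Dlgap1, with a median of 0.930 over the 10 genes and 1.04 over all transcripts. The 3′UTRs of Shank2, Dlgap2 and Dlgap3 held none, where 64.0% of all 3′UTRs held at least 1.

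Known partners of the scaffold proteins were listed as 28 genes, among them the PSD-95 family, metabotropic glutamate receptors, neuroligins and actin regulators, and all 28 could be tested. In YTHDF1 14 were enriched and 4 depleted, in YTHDF2 3 and 2, and in YTHDF3 10 and 3, against the shares of all genes given above. Their median log2 fold changes were 0.95, 0.31 and 0.66. Grm5, the receptor mGluR5 that Homer binds, was highest in YTHDF1 at 3.45 ± 0.34 (10.9-fold, edgeR adjusted p 1.75e-05), followed by the adhesion protein gene Nlgn3 at 3.03 ± 0.20 (2.11e-06). In YTHDF2 Nlgn2, the neuroligin of inhibitory synapses, was the highest of the called partners at 0.93 ± 0.27 (0.0193) and the inositol trisphosphate receptor gene Itpr1 the next of them at 0.74 ± 0.25 (0.0408), and both calls were lost without Input replicate 2, Input replicate 3 or YTHDF2 replicate 3 (values of 0.55 to 0.90), that of Itpr1 also without YTHDF2 replicate 1 (0.57). Both were lost as well without YTHDF1 replicate 1 and YTHDF2 replicate 3 together (0.67 and 0.71). In YTHDF3 Nlgn2 was enriched at 1.21 ± 0.27 (0.00408). Dynll1, a small dynein light chain that binds Dlgap proteins, was the lowest partner in each RIP, at -1.75 ± 0.24, -1.63 ± 0.24 and -2.34 ± 0.25 (0.000132, 0.000652 and 5.37e-05). Its paralog Dynll2 was the next called partner in YTHDF1 and YTHDF3 (-1.06 ± 0.22 and -1.61 ± 0.22), as the actin regulator gene Abi1 was in YTHDF2 (-0.97 ± 0.17). With the length trend removed, 5, 0 and 2 of the 28 were enriched, against 22.2%, 12.96% and 15.2% of all genes, and 7, 4 and 3 depleted, where 24.6%, 16.4% and 16.8% were.

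Genes whose log2 CPM ran most closely with a scaffold gene over the 12 libraries were looked up among 9918 protein-coding genes, as a description without a test, since the libraries share groups, lysates and depth. For Shank1 they were Tbc1d10b (Pearson r 0.973) and Zkscan2 (0.971), for Homer1 Astn1 (0.988) and Ppargc1a (0.984), and for Dlgap1 Eps15 (0.981) and Zfr (0.979). None of these 6 genes is another scaffold gene or a gene of the partner list.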

How the data were processed

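RIP-seq libraries of 3 replicates each of Input, YTHDF1, YTHDF2 and YTHDF3 RIP were analysed. The authors extracted unique molecular identifiers with UMI-tools 1.1.1, trimmed with cutadapt 3.4, aligned to mm10 (GRCm38) with STAR 2.7.7a, removed duplicates and deposited the raw count of each gene as given by featureCounts 2.0.1. Per the file headers the counting was stranded, gave a read that overlaps several genes to each of them and counted every reported alignment. The authors also deposited DESeq2 tables that hold a mean signal, log2 fold changes and p-values; of these only the gene symbols were used.

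Library totals ran from 6020072 to 38909592 counts. A gene was tested where its normalized counts averaged at least 10 (17126 genes). After TMM scaling, the 12 libraries and 4 groups entered a single quasi-likelihood fit in edgeR 4.0.16 (R 4.3.3), with Benjamini-Hochberg adjustment over all genes. A log2 fold change is given ± SE, its size over the square root of F. Log2 CPM had a prior count of 2. Alternatives were DESeq2 1.42.0, other scalings and filters, a replicate block, pairs of groups alone, removal of each library's length trend (loess, span 0.3), each library left out in turn and, chosen after the data were seen, both libraries with the most genes detected left out. The fit was tested on simulated data. Family shares used counts per kb and exact permutation tests in SciPy.

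The members and lists were chosen with earlier results of these data known. All 10 genes are named in each comparison, together with the 2 highest and 2 lowest called partners in each RIP and the 2 genes most correlated with Shank1, Homer1 and Dlgap1; 1 partner is not reported here. The labels number the replicates 1 to 3 in each group. The methods give each replicate 1 pooled lysate but do not tie it to these numbers, so matching the libraries by number was assumed here. The deviations of same-numbered libraries from their group means correlated at 0.829, 0.528 and 0.804 between Input and YTHDF3, but at 0.0907, -0.267 and -0.322 between Input and YTHDF1 and at 0.178, -0.323 and -0.313 between Input and YTHDF2. Whether the lysates came from separate litters is not stated, so p-values measure only the spread between these samples.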

Additional observations from a re-analysis of the deposited data

Results flagged for a closer look

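Homer1 and Dlgap2 were set apart because their enrichment over Input differed between the proteins. The joint edgeR test of the 3 RIPs gave an adjusted p of 0.0142 for Homer1 and 0.0173 for Dlgap2. Of all genes tested, 32.3% passed this test, so passing it does not mark these 2 genes out. For Homer1 the log2 fold change over Input was 1.31 in YTHDF1, -0.03 in YTHDF2 and 0.48 in YTHDF3, and for Dlgap2 it was 2.18, 0.52 and 1.02. The 22 alternative settings reuse the same libraries, and 12 of them only left out 1 library. Over these settings the adjusted p of Homer1 passed in 19 and ran from 0.000116 to 0.131, with the highest values where the length trend was removed. That of Dlgap2 passed in 20 and ran from 4.11e-07 to 0.0760.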

How the results depend on the processing

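Shank1 in all 3 RIPs, Shank2, Homer1 and Dlgap2 in YTHDF1 and Shank3 in YTHDF2 kept their calls whichever library was left out. Numbers of the 10 genes called changed as follows. With the length trend removed, with or without the replicate block, 2 were enriched in YTHDF1, 1 in YTHDF3, 1 was depleted in YTHDF2 and 1 differed among the RIPs. Without the block, the shares of all genes were 22.2%, 15.2%, 16.4% and 29.7%. With library size alone, 7 were enriched in YTHDF3, 7 differed among the RIPs and 2 between YTHDF1 and YTHDF3, where 28.2%, 46.4% and 24.6% of all genes did. Without the filter, 0 were depleted in YTHDF1 and 1 in YTHDF2, 5 differed among the RIPs and 4 between YTHDF1 and YTHDF2, and YTHDF3 differed in 1 from YTHDF1 and in 1 from YTHDF2. Of all 44478 genes then tested, 10.3%, 8.20%, 13.9%, 8.26%, 7.56% and 4.07% did. DESeq2 gave 4 between YTHDF1 and YTHDF2 and 1 between YTHDF1 and YTHDF3, the number also found without both libraries with the most genes detected, an alternative chosen after seeing the data. The shares of all genes were 18.7% and 15.6% with DESeq2 and 13.9% for the latter. With 2 groups alone and the replicate block, 2 were enriched and 0 depleted in YTHDF1 and 7 enriched and 1 depleted in YTHDF3, beside the shares given above. Without the block, 4 were enriched in YTHDF2 and 1 depleted in YTHDF3, where 18.1% and 24.4% of all genes were. The replicate block in the fit of all libraries changed no count of calls of the 10 genes.

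Over the fits that left out 1 library, the number enriched ran from 4 to 6 in YTHDF1, 2 to 4 in YTHDF2 (4 without YTHDF1 replicate 2) and 1 to 5 in YTHDF3. Of all 17126 genes, 3683 to 4621, 1909 to 3067 and 1970 to 3650 were enriched. The number depleted ran from 0 to 1 in YTHDF1 and 0 to 1 in YTHDF2 (1 without YTHDF2 replicate 2), where 3734 to 5141 and 2418 to 3862 of all genes were. Those that differed ran from 0 to 3 among the RIPs (0 without YTHDF1 replicate 3), 2 to 3 between YTHDF1 and YTHDF2 and 0 to 2 between YTHDF1 and YTHDF3 (2 without YTHDF1 replicate 1). Of all genes, 3891 to 6681, 2402 to 3873 and 1717 to 2703 differed. Of the 30 family shares, 14 to 17 were outside the Input range, where a group with 1 library fewer separates more easily.

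Of the 28 partner genes, 5, 0 and 2 were enriched and 7 and 4 depleted in YTHDF1 and YTHDF2 with the length trend removed, with or without the block. The shares of all genes without the block are given with the partners above. In YTHDF2 5 were enriched with DESeq2, 6 with library size alone, 1 without both libraries and 0 without the filter. Of all genes 17.25%, 17.00%, 13.11% and 4.58% were. There 4 were depleted with DESeq2, TMM over protein-coding genes or no filter. Of all genes, 3643 of 17098, 3766 of 17126 and 3646 of 44478 were depleted. In YTHDF3 18 were enriched with library size alone, where 28.16% of all genes were. Leaving out 1 library gave 10 to 15, 0 to 5 and 7 to 16 enriched and 3 to 4, 2 to 4 and 2 to 3 depleted. The counts of all genes in these fits are given above, with 2987 to 4133 depleted in YTHDF3.

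Some signs turned for values that had not passed. Dlgap1 in YTHDF1 was at -1.45 with the length trend removed (-1.48 with the block), -0.40 with library size, -0.25 with TMM over protein-coding genes, -0.20 and -0.10 with 2 groups alone with and without the block, -0.11 with a minimum of 50, -0.0434 with the replicate block, -0.0246 with DESeq2, -0.0244 with its size factors and -0.0129 without the filter. With the length trend removed, without and with the block, Dlgap1 in YTHDF3 was at -0.52 and -0.53, Dlgap4 in YTHDF1 at -0.37 and -0.38, Homer1 in YTHDF3 at -0.12 and -0.12 and Homer2 in YTHDF1 at -0.38 and -0.46. With library size alone, Dlgap4 in YTHDF1 was at -0.0678, Homer1 in YTHDF2 at 0.0257 and Homer2 in YTHDF3 at 0.0518. Leaving out 1 library moved Dlgap1 in YTHDF1 between -0.52 and 0.18 and in YTHDF3 between -0.0753 and 0.54, and Homer1 in YTHDF2 between -0.26 and 0.18. Library size alone moved the median of all genes by -0.40, 0.07 and 0.33 in YTHDF1, YTHDF2 and YTHDF3. The cause of these changes was not tested.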
